A study of Mus musculus with 8 samples.

Results

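The genes described here are 37 enzymes and enzyme subunits that break down amino acids in the liver, out of 27453 genes listed in the deposited tables. They were chosen by name for their place in a breakdown route, with earlier results of these data known, and every one was found under its symbol. The routes are those of the aromatic amino acids phenylalanine and tyrosine (5 genes), tryptophan (5), histidine (4), glycine and serine (5), the branched-chain amino acids (11), lysine (1) and proline (3), with 3 transaminases that serve several amino acids. The libraries hold native liver RNA of C57BL/6JN mice, an inbred strain, read molecule by molecule through nanopores. The first group, O-titled, has 4 libraries (replicates 1 and 2 from males, 3 and 4 from females) whose age field reads 12 weeks. The second group, Y-titled, also has 4 libraries with the same sexes, and its age field reads 80 weeks. The design text gives ages of roughly 2 months (young) and 18 months (old), so the titles and the age field go against each other and the groups are named by title only. No genotype, diet or agent is given for either group, each library is a separate animal, and neither fasting state nor time of day is stated.

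Amino acids that are not needed for protein synthesis cannot be stored, and the liver takes most of them apart. An aminotransferase or dehydratase usually removes the nitrogen, which goes to urea, and the carbon skeleton is cut down to pyruvate, acetyl units or intermediates of the citric acid cycle, from which glucose or ketone bodies can be made. Many of these enzymes are made by hepatocytes of the periportal zone, where blood enters the lobule, and several are known to respond to feeding, glucagon, glucocorticoids and the time of day.

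Between 545171 and 2593200 reads were mapped per library, so that 3 reads, taken as the floor of detection, were worth 1.16 to 5.50 CPM (counts-per-million). All 37 genes passed the count filter, and the lowest count of any of them in any library was 9 reads, for Sdsl in O-titled replicate 2. Hepatocyte markers were high in every library. Their sum over 6 genes, of which Tat is also among the 37, was 91615 and 72059.9 CPM in O-titled females, against 111979 and 91976 CPM in Y-titled females, and 97875 and 73008 CPM in O-titled males, against 67608 and 87804 CPM in Y-titled males. Both O-titled females lay below both Y-titled females in that sum, and 1 of the 6, Ttr, was lower in O-titled females (log2 fold change -0.55, adjusted p = 0.027), a call lost without O-titled replicate 4 (0.365), Y-titled replicate 3 (0.198) or Y-titled replicate 4 (0.0834). The folds of the 6 in females were negative for 4 and positive for 2, the largest being that of Tat at 1.24. Of 5 pancreas acinar markers, 4 (Cpa1, Ctrb1, Pnlip, Prss1) had no read in any library. Over both sexes, the sums of 2 lists of non-hepatocyte markers did not overlap between the title groups. Those of the Kupffer cell and macrophage, sinusoidal endothelium, cholangiocyte, neutrophil, pancreas acinar and erythroid lists overlapped. Among single genes tested, 8.71% did not overlap. Stellate cell and fibroblast markers (9 genes) summed to 213 to 291 CPM in O-titled libraries, against 141 to 199 CPM in Y-titled libraries, and lymphocyte and plasma cell markers (8 genes) to 17.7 to 48.4 CPM in O-titled libraries, against 7.34 to 10.8 CPM in Y-titled libraries. None of the 8 lymphocyte and plasma cell markers passed the count filter. Kupffer cell and macrophage markers (12 genes) summed to 1631 and 1216 CPM in O-titled females, against 786 and 795 CPM in Y-titled females, and 1511 and 540.4 CPM in O-titled males, against 704 and 635 CPM in Y-titled males. Both O-titled females lay above both Y-titled females in that sum. All 11 of the markers tested had positive folds in females (median 0.58), beside 49.2% of all genes. In males 10 of them were positive (median 0.44), beside 49.7% of all genes, and over both sexes all 11 (median 0.49), beside 49.9%. None passed in any of these comparisons. The part of these markers in the results below was not tested. In whole liver, fewer cells of a type and less RNA per cell cannot be told apart. The marker sums, here and in the next paragraph, are CPM of all mapped reads without scaling. Other levels below are CPM of the reads in tested genes after scaling unless another scale is named. Adjusted p values are those of edgeR's quasi-likelihood test over 6759 genes unless another source is named.

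Some libraries stood apart for these genes. Y-titled replicate 3, a female, was the lowest of the 8 libraries for 14 of 37 genes (37.8%, beside 12.1% of all genes), and O-titled replicate 1, the deepest library and a male, for 9 (24.3%, beside 6.73%). O-titled replicate 4 was the highest for 11 (29.7%, beside 13.0%) and Y-titled replicate 2, the shallowest library and a male, for 10 (27.0%, beside 19.0%). Markers of periportal hepatocytes varied in the same libraries. Their sum over 7 genes, of which Hal and Sds are also among the 37, was 8519 and 6286 CPM in O-titled females, against 4746 and 5868 CPM in Y-titled females, and 4682 and 5362 CPM in O-titled males, against 5006 and 7616 CPM in Y-titled males. The 7 did not move together. In females 6 folds were positive, while Cyp2f2, the only 1 that passed, was lower in O-titled livers (log2 fold change -0.94, adjusted p = 0.000716). In males 6 folds were negative, and again only Cyp2f2 passed (-0.92, adjusted p = 0.00273). Erythroid markers (5 genes) summed to 2363 and 2894 CPM in O-titled females, against 1664 and 1968 CPM in Y-titled females, and 2720.2 and 2018 CPM in O-titled males, against 4299 and 2659.7 CPM in Y-titled males. The part of either in the results below was not tested.

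Over both sexes, Gldc, a subunit of the glycine cleavage system, was lower in O-titled livers, and Prodh, the first enzyme of proline oxidation, and Gpt2, the mitochondrial alanine aminotransferase, were higher. These are 3 of 37 genes, or 8.11%, where 4.01% of all genes tested passed in either direction. Of all genes tested, 2.09% passed as higher and 1.92% as lower. The log2 fold changes of the 37 genes ran between -1.10 and 0.77 with a median of 0.07, and 23 were positive, beside 49.9% of all genes tested. These values moved with single libraries, to 18 positive and a median of -0.01 without Y-titled replicate 3, and 27 positive and a median of 0.22 without O-titled replicate 1.

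**Figure D1:**
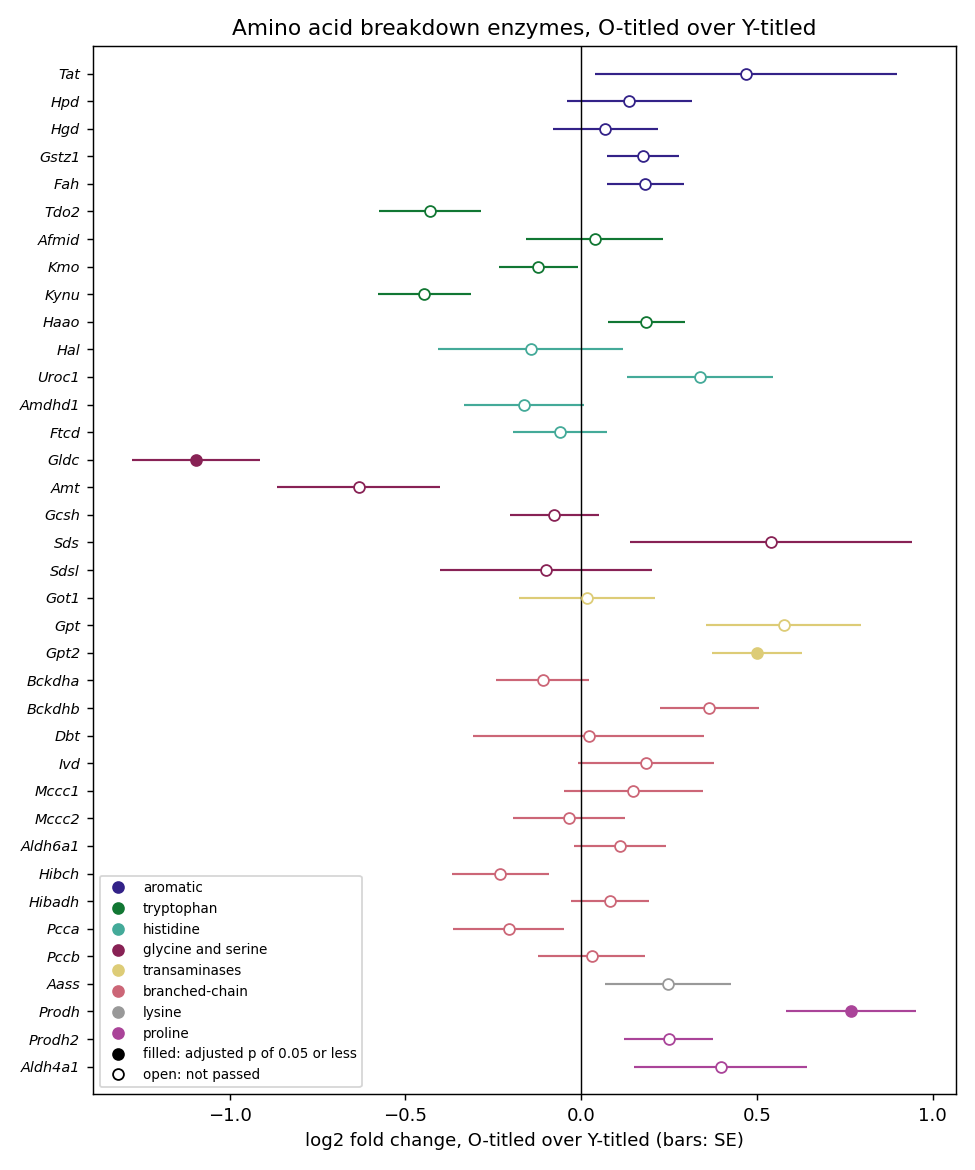
The log2 fold change of each of the 37 genes, O-titled over Y-titled with sex as a covariate, is plotted on the horizontal axis with its standard error as a bar, and genes run down the page by route (colour). Filled points mark the 3 genes that passed, which are Gldc on the left at -1.10 and Gpt2 and Prodh on the right at 0.50 and 0.77.

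Each sex was also tested by itself. In females 6 of 37 genes passed, beside 5.47% of all genes tested. Of these, 5 were higher in O-titled livers (Gpt, Aldh4a1, Ivd, Aass and Gpt2), where 2.74% of all genes passed as higher, and 1 was lower (Gldc), where 2.74% passed as lower. In males 1 gene passed, Tdo2, which was lower, beside 1.26% of all genes in either direction, 0.636% as higher and 0.621% as lower. The median log2 fold change of the 37 genes was 0.31 in females, with 28 positive, and -0.20 in males, with 9 positive. Of all genes tested, 49.2% were positive in females and 49.7% in males. With a library left out, the female medians lay between 0.25 and 0.42, with 27 to 29 positive. In males 15 were positive with a median of -0.04 without O-titled replicate 1, 7 with -0.34 without O-titled replicate 2, 12 with -0.34 without Y-titled replicate 1 and 12 with -0.12 without Y-titled replicate 2. The number higher in females was 2 when Y-titled replicate 3 was left out, 3 without O-titled replicate 4 and 8 without Y-titled replicate 2. The number lower in males was 0 without O-titled replicate 1, O-titled replicate 2 or Y-titled replicate 2, and 2 without O-titled replicate 3 or O-titled replicate 4.

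The difference between the sexes was itself estimated as the log2 fold change in females minus that in males. It was positive for 33 of 37 genes, with a median of 0.53, while 49.0% of all genes tested were positive with a median of -0.01. For 1 gene, Aldh4a1, the difference passed, where 0.385% of all genes passed in either direction and 0.148% in this one. Leaving out each library in turn gave 30 to 34 positive genes, the fewest without O-titled replicate 1, and the median was 0.37 without Y-titled replicate 2. Both O-titled females lay above both Y-titled females for 19 of 37 genes and below them for 7, beside 22.3% and 23.9% of all genes. Both O-titled males lay below both Y-titled males for 12 and above them for 5, beside 20.4% and 20.3% of all genes.

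**Figure D2:**
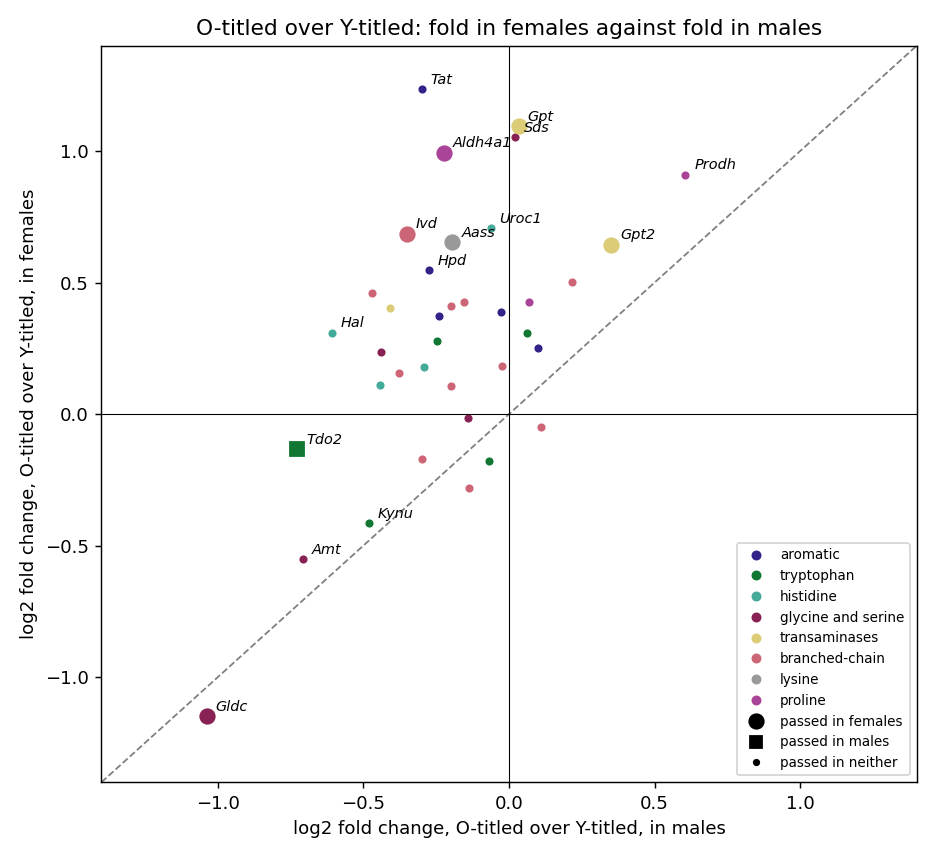
Each point is 1 of the 37 genes, with the log2 fold change of O-titled over Y-titled males on the horizontal axis and of O-titled over Y-titled females on the vertical axis, coloured by route; the dashed line marks equal change. Of the 37 points, 33 lie above the line, and large circles and the square mark the 6 genes that passed in females and the 1 that passed in males.

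The stretches of 250 bases before the RefSeq start (build GRCm38.p6) are shown for the 3 genes that passed over both sexes and for Aldh4a1, the gene whose change differed between the sexes. They are written 5′ to 3′ on the gene's strand, and capitals mark the letters CCACCC or their reverse complement GGGTGG, the core of a motif bound by KLF factors. GENCODE places the start of Aldh4a1 at base 139622866, inside its window, and the outermost start of Prodh at base 18090203, upstream of its window. The GENCODE start of Prodh-201, the transcript with 71.4% of Prodh reads, is at base 18089292, inside the Prodh window.
Gldc, chr19:30175442-30175691, minus strand: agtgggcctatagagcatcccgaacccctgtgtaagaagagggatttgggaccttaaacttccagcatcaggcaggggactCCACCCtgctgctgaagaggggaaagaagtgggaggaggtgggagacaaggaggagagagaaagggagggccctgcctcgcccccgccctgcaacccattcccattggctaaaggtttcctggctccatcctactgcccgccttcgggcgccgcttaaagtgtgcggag
Prodh, chr16:18089191-18089440, minus strand: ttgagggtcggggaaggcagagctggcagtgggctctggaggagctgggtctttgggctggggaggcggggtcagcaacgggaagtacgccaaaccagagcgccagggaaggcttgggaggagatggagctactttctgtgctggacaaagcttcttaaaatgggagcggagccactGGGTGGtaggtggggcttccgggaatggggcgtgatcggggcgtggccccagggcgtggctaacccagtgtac
Gpt2, chr8:85492326-85492575, plus strand: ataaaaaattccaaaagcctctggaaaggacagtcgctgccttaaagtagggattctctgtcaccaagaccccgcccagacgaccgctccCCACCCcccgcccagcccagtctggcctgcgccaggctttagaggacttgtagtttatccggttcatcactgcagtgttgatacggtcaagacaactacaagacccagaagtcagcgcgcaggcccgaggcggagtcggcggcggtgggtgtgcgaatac
Aldh4a1, chr4:139622644-139622893, plus strand: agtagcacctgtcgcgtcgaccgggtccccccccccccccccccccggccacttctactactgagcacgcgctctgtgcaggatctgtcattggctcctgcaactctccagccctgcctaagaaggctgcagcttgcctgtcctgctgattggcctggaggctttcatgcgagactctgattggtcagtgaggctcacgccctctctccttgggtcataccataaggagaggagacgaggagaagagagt

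A KLF-type match began 169 bases before the RefSeq start of Gldc and 160 before that of Gpt2, both as printed. Another began 73 bases before that of Prodh on the other strand, while the Aldh4a1 window held none. The Prodh match lay downstream of the GENCODE start of Prodh-201, within the bounds of that transcript. A KLF-type match was common, being present in 28.08% of the 32851 promoter windows of this length and in 15 of the 36 windows of the enzymes. By gene, 14 of the 32 enzymes with a window had a match, a count in which genes with several windows have more chances. The E-box CACGTG, a palindrome, was present in 6.02% of windows and in that of 1 enzyme, Mccc2. The glucocorticoid receptor half-site AGAACA or its reverse complement TGTTCT was present in 16.08% of windows and in those of 3 enzymes, Bckdhb, Haao and Pccb. None of these motifs contains another, both strands were searched, and a match is a string of letters and not a shown site.

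Prodh opens the breakdown of proline and Prodh2 that of hydroxyproline, and the mitochondrial dehydrogenase Aldh4a1 acts further down both routes, making glutamate from proline. Prodh had 127 and 194 CPM in O-titled females, against 67.1 and 104 CPM in Y-titled females, and 116 and 161 CPM in O-titled males, against 96.9 and 75.2 CPM in Y-titled males. All 4 O-titled values lay above all 4 Y-titled values. Prodh was higher in O-titled livers by 0.77 on the log2 scale (SE 0.186, adjusted p = 0.0329), and the call was lost without O-titled replicate 2 (0.0739), O-titled replicate 4 (0.0749), Y-titled replicate 2 (0.0783) or Y-titled replicate 3 (0.0895), adjusted p in parentheses. It was also lost with limma voom (adjusted p = 0.0548) and with all libraries thinned to equal depth (0.136). Prodh overlaps Dgcr6 on the opposite strand, which had 516 reads over all libraries against 1225 for Prodh, and whether the counting used strand is not given in the sources used here. Nearly all Prodh reads fell to 2 transcripts, of which Prodh-201 took 71.0% ± 2.11 in O-titled and 72.1% ± 2.56 in Y-titled libraries (SD, n = 4 each).

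Aldh4a1 had 397 and 429.9 CPM in O-titled females, against 204 and 211 CPM in Y-titled females, and 207 and 265 CPM in O-titled males, against 254 and 295 CPM in Y-titled males. Both O-titled females were far above every other library, while the O-titled males overlapped the Y-titled males. In females the gene was higher in O-titled livers by 0.99 (SE 0.156, adjusted p = 0.000414), which held in all 14 alternatives tried, and in males the log2 fold change was -0.22 (SE 0.158, adjusted p = 0.727). The difference between these folds was 1.22 (SE 0.222, adjusted p = 0.0175). That test no longer passed without O-titled replicate 1 (adjusted p = 0.118), Y-titled replicate 2 (0.0873), Y-titled replicate 3 (0.0983) or Y-titled replicate 4 (0.0611), nor with libraries thinned to equal depth (0.214). Aldh4a1 lies within the annotated bounds of Gm21969, a protein-coding gene on the same strand that has no row in the counts. Whether any reads given to Aldh4a1 came from Gm21969 cannot be told, so its counts are uncertain. Prodh2, which oxidises hydroxyproline, had 151 and 176 CPM in O-titled females, against 123 and 121 CPM in Y-titled females (log2 fold change 0.43, adjusted p = 0.173). The 3 genes together summed to 675 and 800.2 CPM in O-titled females, against 394 and 436 CPM in Y-titled females, and 458 and 559 CPM in O-titled males, against 468 and 515 CPM in Y-titled males, so the O-titled females stood above all other libraries.

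Transaminases move the amino group of alanine and aspartate to 2-oxoglutarate, Gpt and Got1 in the cytosol and Gpt2 in mitochondria. Gpt had 360.3 and 363 CPM in O-titled females, against 146 and 192 CPM in Y-titled females, and 195 and 240.5 CPM in O-titled males, against 189 and 238 CPM in Y-titled males. The O-titled females were above all other libraries, and the male groups overlapped. Gpt was higher in O-titled females by 1.10 (SE 0.169, adjusted p = 0.00035), in every one of 14 alternatives, with a fold of 0.03 in males (adjusted p = 0.984) and a difference between the sexes of 1.06 that did not pass (adjusted p = 0.0645).

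Gpt2 had 199.7 and 269 CPM in O-titled females, against 141 and 159 CPM in Y-titled females, and 233 and 281 CPM in O-titled males, against 209 and 188 CPM in Y-titled males. Within each sex the O-titled values lay above the Y-titled ones, although the lowest O-titled value, of a female, was under the highest Y-titled value, of a male. Over both sexes the log2 fold change was 0.50 (SE 0.127, adjusted p = 0.0321), and in females alone it was 0.64 (SE 0.17, adjusted p = 0.0304). The call over both sexes was lost without O-titled replicate 2 (adjusted p = 0.0739), O-titled replicate 4 (0.113), Y-titled replicate 2 (0.0537), Y-titled replicate 3 (0.132) or Y-titled replicate 4 (0.0972). It was lost as well with DESeq2 (adjusted p = 0.0837), limma voom (0.0658), thinning to equal depth (0.47), the replicate block (0.0668) and no covariate (0.117), so that 10 of 16 alternatives ended it. The call in females was lost without O-titled replicate 4 (0.275), Y-titled replicate 3 (0.281) or Y-titled replicate 4 (0.0864), and with DESeq2 (0.177), limma voom (0.0624) or thinning (0.477). Got1, the aspartate enzyme, had 263 and 214 CPM in O-titled females, against 139.6 and 219.9 CPM in Y-titled females, and 118 and 146 CPM in O-titled males, against 169 and 178 CPM in Y-titled males, and passed in no comparison. Its log2 fold change for females over males was 0.47 (SE 0.194, adjusted p = 0.346), which passed without Y-titled replicate 3 (adjusted p = 0.0217).

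**Figure D3:**
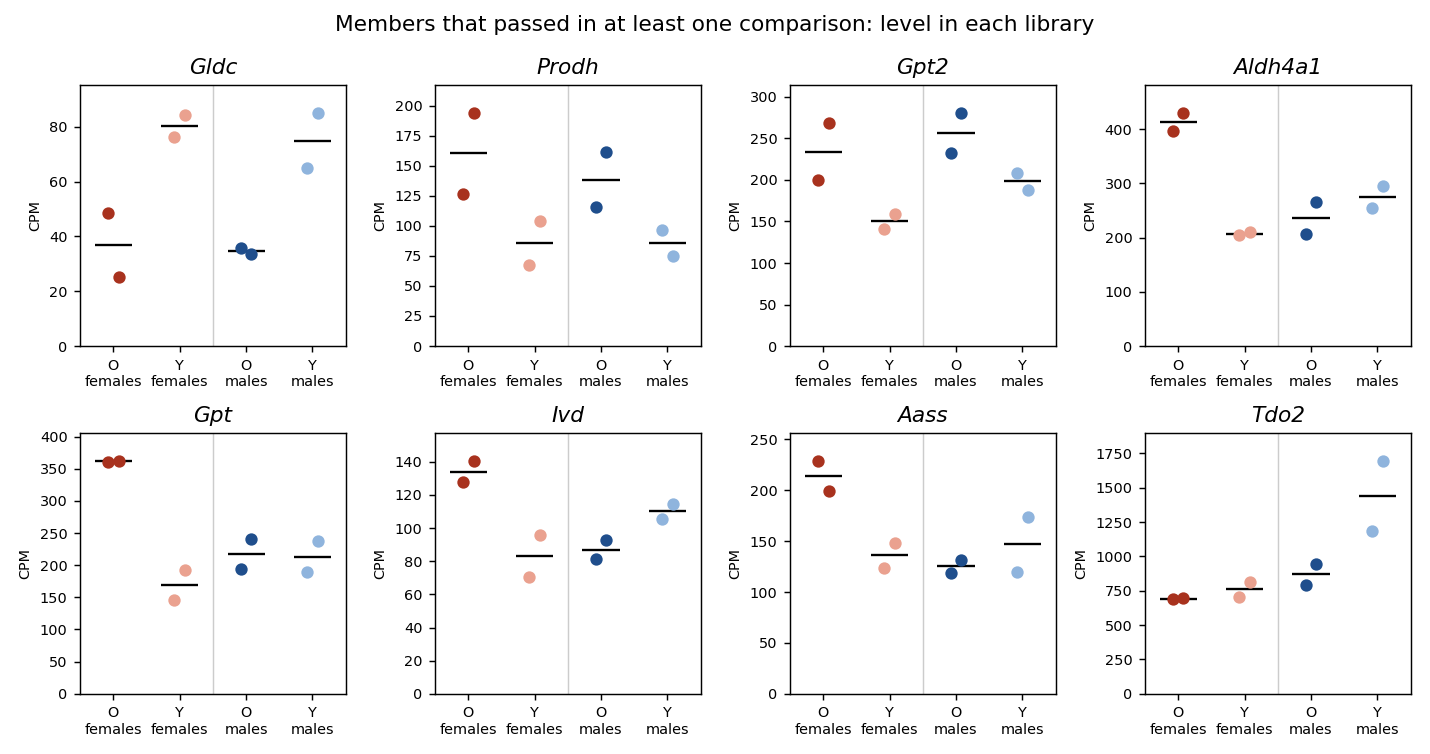
The level of each of the 8 genes that passed in at least 1 comparison is shown in CPM on the vertical axis for every library, by title and sex, with a bar at the mean of each pair. For Gldc both O-titled pairs sit below both Y-titled pairs; for Aldh4a1 and Gpt the O-titled females, at 397 to 430 and 360 to 363 CPM, sit above every other library; for Tdo2 the Y-titled males, at 1181 and 1697 CPM, do.

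The glycine cleavage system splits glycine in mitochondria and passes a one-carbon unit to folate. Gldc is its decarboxylase, Amt the aminomethyltransferase and Gcsh the carrier protein. Gldc had 48.6 and 25.2 CPM in O-titled females, against 76.2 and 84.4 CPM in Y-titled females, and 35.7 and 33.6 CPM in O-titled males, against 64.8 and 85.1 CPM in Y-titled males. Every O-titled value was below every Y-titled value, in both sexes. Gldc was lower in O-titled livers by a log2 fold change of -1.10 (SE 0.182, adjusted p = 0.00173), which no single left-out library undid. The folds were -1.15 in females (SE 0.253, adjusted p = 0.00966) and -1.04 in males (SE 0.26, adjusted p = 0.0574). The female call was lost without O-titled replicate 4 (adjusted p = 0.161), Y-titled replicate 3 (0.0597) or Y-titled replicate 4 (0.106), and with DESeq2 (0.059) or thinning to equal depth (0.113). Thinning also ended the call over both sexes (adjusted p = 0.0806). The mean length of its reads was 52.7% of the annotated transcript.

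Amt, of which 188 reads were seen in all, had 15.6 and 14.7 CPM in O-titled females, against 19.3 and 25.1 CPM in Y-titled females, and 14.2 and 17.5 CPM in O-titled males, against 20.1 and 35.6 CPM in Y-titled males. Its 2 title groups did not overlap either, O-titled being lower, but the fold of -0.63 did not pass (SE 0.233, adjusted p = 0.161). Among all genes tested 8.71% did not overlap, and 4.62% had O-titled values wholly below and 4.1% wholly above the Y-titled values. Of the 37 genes, 2 were wholly below (Gldc and Amt) and 2 wholly above (Prodh and Bckdhb). Gcsh, the third protein of the system, had 110.3 and 127 CPM in O-titled females, against 128 and 112 CPM in Y-titled females, and 103 and 88.7 CPM in O-titled males, against 114 and 97.0 CPM in Y-titled males, and the groups overlapped.

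Sds, serine dehydratase, turns serine into pyruvate, and Sdsl is its close relative. Sds had 377 and 276 CPM in O-titled females, against 145 and 169 CPM in Y-titled females, and 188 and 304 CPM in O-titled males, against 145 and 352 CPM in Y-titled males. Y-titled replicate 2, a male, stood at more than any other Y-titled library, and the title groups overlapped (log2 fold change 0.54, SE 0.401, adjusted p = 0.613). In females the fold was 1.05 with a standard error of 0.511 and did not pass (adjusted p = 0.431). Sdsl lay between 11.2 and 27.7 CPM over all libraries.

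Tyrosine is taken apart by Tat, its aminotransferase, then Hpd, which makes homogentisate, Hgd, which opens the ring, Gstz1, an isomerase, and Fah, which releases fumarate and acetoacetate. None of the 5 passed in any comparison. All 5 folds were positive in females (median 0.39) and 4 of 5 negative in males (median -0.24). Tat had 1050.5 and 1131 CPM in O-titled females, against 361 and 565 CPM in Y-titled females, and 588 and 876 CPM in O-titled males, against 667 and 1138 CPM in Y-titled males. It varied widely, the lowest library being Y-titled replicate 3 and the highest Y-titled replicate 2, and the fold in females was 1.24 (SE 0.353, adjusted p = 0.145).

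Hpd had 1961 and 2578 CPM in O-titled females, against 1353 and 1754 CPM in Y-titled females, and 1217 and 1326 CPM in O-titled males, against 1377 and 1702 CPM in Y-titled males. Both O-titled males lay below all 4 Y-titled libraries and both O-titled females above them, with a female fold of 0.55 (SE 0.17, adjusted p = 0.0707) and a difference between the sexes of 0.82 (SE 0.24, adjusted p = 0.237). Hpd lies within the annotated bounds of Gm26745, a non-coding gene on the same strand that has no row in the counts. The later enzymes varied less. Fah had 712 and 699 CPM in O-titled females, against 545 and 534 CPM in Y-titled females, and 562 and 568 CPM in O-titled males, against 589.7 and 560.2 CPM in Y-titled males, Gstz1 ranged between 582 and 764 CPM, and Hgd between 391 and 612 CPM. The route summed to 5008 and 5722 CPM in O-titled females, against 3233 and 3982 CPM in Y-titled females, and 3422 and 4037 CPM in O-titled males, against 3812 and 4624 CPM in Y-titled males.

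Tryptophan enters the kynurenine pathway through Tdo2, which opens the indole ring. Afmid, Kmo, Kynu and Haao carry it on toward NAD. Tdo2 had 689 and 697 CPM in O-titled females, against 704 and 817 CPM in Y-titled females, and 791 and 946 CPM in O-titled males, against 1181 and 1697 CPM in Y-titled males. The Y-titled males stood above all other libraries, and both O-titled females lay just below both Y-titled females. Tdo2 was lower in O-titled males by a log2 fold change of -0.73 (SE 0.168, adjusted p = 0.0346), with -0.13 in females (adjusted p = 0.782) and a difference of 0.59 that did not pass (adjusted p = 0.475). The male call was lost without O-titled replicate 1 (adjusted p = 0.419), O-titled replicate 2 (0.0673) or Y-titled replicate 2 (0.529), and with DESeq2 (0.0533), limma voom (0.0833) or thinning to equal depth (0.198).

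Tdo2 was also the 1 gene of the 37 that differed between females and males over both titles, where 2.96% of all genes passed in either direction, 1.15% as lower and 1.81% as higher in females. The log2 fold change of females over males was -0.62 (SE 0.145, adjusted p = 0.0289). The call was lost without O-titled replicate 2 (adjusted p = 0.0858), Y-titled replicate 1 (0.0556), Y-titled replicate 2 (0.067), Y-titled replicate 3 (0.109) or Y-titled replicate 4 (0.129), and with thinning (0.15). Kynu, which cleaves kynurenines, had 63.4 and 65.8 CPM in O-titled females, against 85.4 and 87.1 CPM in Y-titled females, and 67.3 and 87.3 CPM in O-titled males, against 103 and 107 CPM in Y-titled males. Only O-titled replicate 2 among the O-titled libraries reached the Y-titled range, and the fold of -0.45 did not pass (SE 0.131, adjusted p = 0.0691). Kmo, at 164 to 205 CPM, and Haao, at 506 to 701 CPM, overlapped between the titles. On the opposite strand Kmo overlaps Fh1, which had 2026 reads over all libraries against 1874 for Kmo. Afmid, at 35.6 to 71.4 CPM, lies within the annotated bounds of Gm20708 on the same strand, which had 119 reads to its 568, so its counts are uncertain.

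Histidine is deaminated by Hal and its product passed on by Uroc1, Amdhd1 and Ftcd, the last of which hands a one-carbon group to folate. None of the 4 passed in any comparison, and all 4 folds were positive in females (0.11 to 0.71) and negative in males (-0.61 to -0.06). Hal had 396 and 262 CPM in O-titled females, against 235 and 294 CPM in Y-titled females, and 224 and 193 CPM in O-titled males, against 249 and 404 CPM in Y-titled males. The highest values were those of 1 O-titled female and 1 Y-titled male, and the difference between the sexes was 0.92 (SE 0.369, adjusted p = 0.554). Uroc1, urocanase, had 194 and 203 CPM in O-titled females, against 90.9 and 152 CPM in Y-titled females, and 113 and 130.3 CPM in O-titled males, against 106 and 154 CPM in Y-titled males, with a female fold of 0.71 (SE 0.22, adjusted p = 0.0844). Ftcd ranged from 155 to 285 CPM, with a fold of -0.37 for females over males (adjusted p = 0.207), and Amdhd1 from 146 to 245 CPM.

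**Figure D4:**
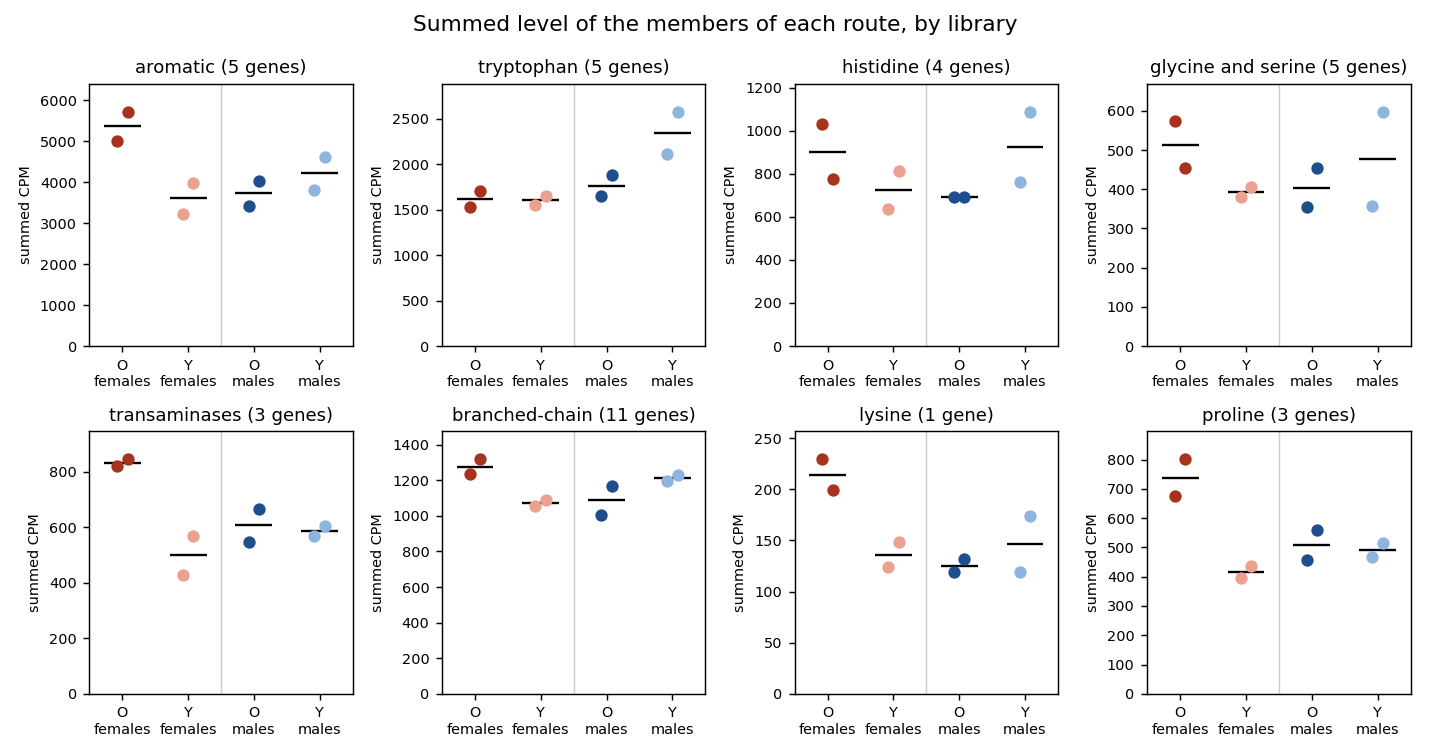
The summed level of the genes of each route is shown in CPM on the vertical axis for every library, by title and sex, with a bar at the mean of each pair. In the aromatic, transaminase, branched-chain, lysine and proline panels both O-titled females lie above all other libraries, at 5008 and 5722 CPM for the aromatic route, and in the tryptophan panel both Y-titled males do, at 2114 and 2579 CPM.

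Leucine, isoleucine and valine are oxidised by 1 dehydrogenase complex, of which Bckdha and Bckdhb form the decarboxylase and Dbt the transacylase core. Bckdhb had 71.2 and 67.9 CPM in O-titled females, against 48.7 and 49.4 CPM in Y-titled females, and 60.3 and 56.4 CPM in O-titled males, against 52.2 and 47.5 CPM in Y-titled males, all O-titled values lying above all Y-titled ones (log2 fold change 0.36, SE 0.141, adjusted p = 0.187). Its partner Bckdha had 161 and 188 CPM in O-titled females, against 145 and 169 CPM in Y-titled females, and 155 and 184 CPM in O-titled males, against 222 and 214 CPM in Y-titled males (log2 fold change -0.11, SE 0.132, adjusted p = 0.76). Neither subunit passed, and the difference between their folds was not tested. Dbt ranged from 19.3 to 59.0 CPM and overlapped between the titles.

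Downstream, Ivd oxidises the leucine product isovaleryl-CoA, and Mccc1 and Mccc2 form the carboxylase of the next steps. Ivd had 128 and 141 CPM in O-titled females, against 70.7 and 96.0 CPM in Y-titled females, and 81.1 and 92.7 CPM in O-titled males, against 106 and 115 CPM in Y-titled males. Both O-titled females were above both Y-titled females, and both O-titled males were below both Y-titled males. In females Ivd was higher in O-titled livers by 0.69 (SE 0.183, adjusted p = 0.0314), with -0.35 in males (adjusted p = 0.612) and a difference of 1.04 that did not pass (SE 0.263, adjusted p = 0.112). The female call was lost without O-titled replicate 4 (adjusted p = 0.128) or Y-titled replicate 3 (0.392), and with DESeq2 (0.23) or thinning to equal depth (0.281). Mccc1 (24.6 to 39.1 CPM) and Mccc2 (36.5 to 57.0 CPM) overlapped between the titles. Of the valine enzymes, Aldh6a1 had 309.9 and 281 CPM in O-titled females, against 223 and 221 CPM in Y-titled females, and 215 and 246 CPM in O-titled males, against 240.4 and 291 CPM in Y-titled males, with a difference between the sexes of 0.61 (SE 0.215, adjusted p = 0.384), and Hibch (55.0 to 76.8 CPM) and Hibadh (209 to 288 CPM) did not pass. Pcca and Pccb, the subunits of propionyl-CoA carboxylase where the valine and isoleucine routes meet, had difference estimates of -0.14 and -0.16 and so, with Kmo and Gldc, were the 4 genes whose fold was not larger in females than in males. Pcca overlaps Ggact on the opposite strand, which had 504 reads against 389 for Pcca.

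Lysine was represented by Aass, which carries out the first 2 steps of its breakdown in 1 protein. Aass had 229 and 199.5 CPM in O-titled females, against 124 and 148 CPM in Y-titled females, and 119 and 132 CPM in O-titled males, against 119.6 and 174 CPM in Y-titled males. The O-titled females were above every other library, and O-titled males overlapped Y-titled males. Aass was higher in O-titled females by 0.65 (SE 0.18, adjusted p = 0.0378), with -0.19 in males (adjusted p = 0.828) and a difference of 0.85 that did not pass (adjusted p = 0.278). The female call was lost without O-titled replicate 3 (adjusted p = 0.161), Y-titled replicate 3 (0.354) or Y-titled replicate 4 (0.0798), and with DESeq2 (0.212) or limma voom (0.0703). With libraries thinned to equal depth the fold was 0.29 (adjusted p = 0.813).

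**Figure D5:**
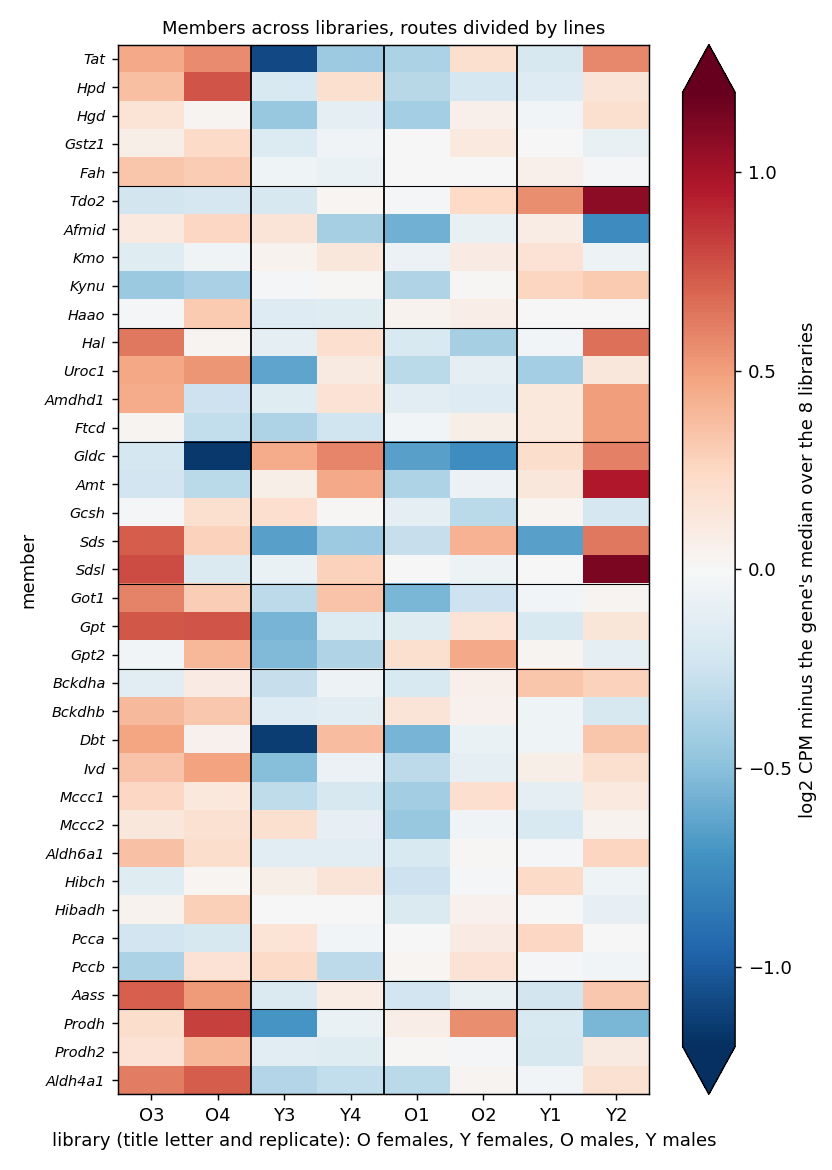
Each row is 1 of the 37 genes and each column 1 library, ordered as O-titled females, Y-titled females, O-titled males and Y-titled males; colour gives log2 CPM minus the gene's median over the 8 libraries. Red fills most of the 2 O-titled female columns and the Y-titled replicate 2 column, which was the highest of all libraries for 10 genes, and blue the columns of O-titled replicate 1 and Y-titled replicate 3, the lowest for 9 and 14 genes.

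Because reads were assigned to transcripts, the use of transcripts could be compared as well as levels. For 23 of the 37 genes 1 transcript took every read, and for 8 at least 2 transcripts took over 10% each. Usage could be tested for 10 of them among 1236 genes. No gene passed in the comparison of the titles (0.0% of all), with 8 genes and none of the 10 at an unadjusted p under 0.05 by the Simes method of diffSpliceDGE. By the F test 43 genes, again none of the 10, were under 0.05 before adjustment and no gene passed. Bckdhb was the most divided, with Bckdhb-201 at 40.2% ± 4.32 in O-titled and 33.6% ± 6.03 in Y-titled libraries (SD, n = 4 each) and Bckdhb-206 at 38.1% ± 5.06 in O-titled and 43.7% ± 2.22 in Y-titled libraries. Uroc1-202 took 39.4% ± 1.49 in O-titled and 34.4% ± 3.88 in Y-titled libraries. Reads fell short of the annotated length for most genes. The mean read of the main transcript covered 29.9% of it for Hal, 40.3% for Tdo2 and 93.5% for Bckdhb, with a median of 70.6% over the genes.

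Other enzymes of these routes and of the sulfur amino acids came from a list of 69 symbols, some of them an older and a newer name of the same gene (such as Mut and Mmut). Of the symbols, 62 could be tested. They gave 2 higher and 1 lower over both sexes, 5 higher and 5 lower in females, and none in males. The shares of all genes tested were 2.09% higher and 1.92% lower over both sexes, 2.74% each way in females, and 1.26% in either direction in males. The difference between the sexes was positive for 48 of the 62 (median 0.31), beside 49.0% of all genes (median -0.01). It passed for none of the 62, beside 0.385% of all genes. Those that were higher in O-titled females included Aldh1l1, which burns off one-carbon units from folate, with 1090.4 and 1254 CPM in O-titled females, against 514 and 714 CPM in Y-titled females (log2 fold change 0.93, adjusted p = 0.00154), Bcat2, the branched-chain transaminase of mitochondria (0.66, 0.0422), and Oat, ornithine aminotransferase (0.76, 0.0344). Those that were lower included Acat1, which cleaves acetoacetyl-CoA (-0.77, adjusted p = 0.0189), and Grhpr, which reduces glyoxylate (-0.74, 0.0201). For females over males, 3 of the 62 were higher and 2 lower, where 1.81% of all genes passed as higher and 1.15% as lower. Kyat3, a kynurenine aminotransferase, was higher in females than in males (1.06, adjusted p = 0.00162). Grhpr was lower in females than in males (-0.75, adjusted p = 0.007), also with any library left out, and the other calls of that comparison were of sulfur enzymes, given below. With each library left out in turn, the call of Kyat3 held in 8 of 8 settings and those in females in 7 for Aldh1l1, 6 for Acat1, 5 for Grhpr, 4 for Bcat2 and 3 for Oat. These 5 calls in females were all lost without Y-titled replicate 3 (adjusted p = 0.0652 to 0.355).

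Of 13 tested regulators of these routes, 1 was higher and 1 lower over both sexes (Per1 and Creb3l3), and 1 higher and 1 lower in females (Klf15 and Hnf4a). Among all genes tested, 2.09% passed as higher and 1.92% as lower over both sexes, and 2.74% each way in females. None of the 13 passed in males, beside 1.26% of all genes in either direction. Klf15, a transcription factor known in mice to govern amino acid breakdown genes in liver, had 95.5 and 125 CPM in O-titled females, against 51.4 and 61.0 CPM in Y-titled females, and 80.0 and 105 CPM in O-titled males, against 109 and 121 CPM in Y-titled males. The Y-titled females were the lowest libraries. Klf15 was higher in O-titled females by 0.97 (SE 0.203, adjusted p = 0.00591), with -0.34 in males (adjusted p = 0.642), and the difference between the sexes was 1.31 (SE 0.284, adjusted p = 0.045). The female call was lost without O-titled replicate 4 (adjusted p = 0.0692) or Y-titled replicate 3 (0.118), and the difference passed in 2 of 8 settings with a library left out, with an adjusted p of up to 0.301 without O-titled replicate 1. Hnf4a, a master regulator of hepatocyte genes, had a log2 fold change of -0.57 in females (adjusted p = 0.0304), which passed in 4 of 8 such settings. Over both sexes, Creb3l3, a liver factor of the fasting response, was lower in O-titled livers, with 144, 117, 126 and 153 CPM in the O-titled libraries, against 203, 214, 207 and 195 CPM in the Y-titled libraries (log2 fold change -0.59, adjusted p = 0.00762). Per1, a clock gene, was higher, with 10.8, 22.8, 17.4 and 23.8 CPM in the O-titled libraries, against 5.04, 5.94, 3.67 and 9.87 CPM in the Y-titled libraries (1.52, adjusted p = 0.0174). The title groups overlapped for neither gene, where 8.71% of all genes tested did not overlap. The Creb3l3 call held with any library left out, and that of Per1, a gene of few reads, was lost without O-titled replicate 4 (adjusted p = 0.0722), Y-titled replicate 1 (0.0608) or Y-titled replicate 3 (0.0901). Fkbp5, a gene induced by glucocorticoids, was higher in females than in males (1.22, adjusted p = 0.0121), a call lost without O-titled replicate 4 (0.0578) or Y-titled replicate 3 (0.0681). Their part in the levels of the enzymes was not tested.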

How the data were processed

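Liver poly(A) RNA of 8 mice was sequenced directly on nanopores, per the labels. The submitters' processing notes name minimap2 2.24, the build mm10 and DESeq2, the last without a role. Counting tool, annotation and multi-mapping are not given in the sources used here. The deposited tables hold, per the file headers, whole-number read counts per transcript with no normalization, and the mean read length, which was used as a description.

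Counts were summed to genes, and genes passing filterByExpr at a minimum count of 10 (6759) were tested in R 4.3.3 with edgeR 4.0.16 (TMM scaling, robust quasi-likelihood test, Benjamini-Hochberg over all genes, call at 0.05 or less). Sex was a covariate of the title comparison, and 4 groups of title and sex gave the folds within a sex and their difference. Standard errors are the fold over the root of its F statistic. Usage of transcripts was tested with diffSpliceDGE. Scripts were tested on simulated data. Promoters are RefSeq's. A floor of 3 reads covers counting error only.

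The 37 genes, the lists and the motifs were chosen with earlier results of these data known. Named genes passed in a comparison, did not overlap between titles, were the most abundant of their route, or had its lowest unadjusted p. Klf15, Hnf4a, Aldh1l1, Bcat2, Oat, Acat1, Cdo1 and Slc38a4 were named for passing in females, after their values were seen. Replicate numbers carry sex. Once sex was removed, deviations of same-numbered libraries correlated at -0.0649 in males and -0.0275 in females. With 2 libraries per title and sex, both replicate numbers of a sex must give the same value. These values could not show whether the numbers pair animals. In both titles replicate 1 was the deepest library (2593200 and 1722220 mapped reads) and replicate 2 the shallowest (792004 and 545171). Alternatives were RLE scaling, DESeq2 1.42.0, limma 3.58.1 voom, other filters, thinning, a replicate block, no covariate and each library left out. A result for 1 other gene is not reported here.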

Additional observations from a re-analysis of the deposited data

Results flagged for a closer look

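There were 5 values that stood far from the other libraries of their title group, among 74 groups of 4 looked at, where chance gives about 1 in 20. Each had a gap to its neighbour that filled most of the group's range, past Dixon's critical value. Kynu was 87.3 CPM in O-titled replicate 2, with 63.4 to 67.3 in the other O-titled libraries. Amdhd1 was 236 CPM in O-titled replicate 3, with 146 to 159 in the others of its group, and Sdsl was 21.7 CPM in the same library, with 11.2 to 12.7 in the others. Sds was 352 CPM in Y-titled replicate 2, while its group's others held 145 to 169. Hibadh was lowest in that library at 219.7 CPM, with 234 to 237 in the others. This small gap rested on 111 reads in the shallowest library and passed because the others lay close together. Sdsl had only 9 to 33 reads per library, and each group of 4 held 2 males and 2 females.

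A difference between the sexes marked out 3 genes. For Aldh4a1 the log2 fold change in females exceeded that in males by 1.22 (adjusted p = 0.0175 by edgeR's quasi-likelihood test). For Hpd (difference 0.82, adjusted p = 0.237) and Ivd (1.04, adjusted p = 0.112) both O-titled females lay above, and both O-titled males below, the Y-titled libraries of their own sex, and the tested difference did not pass.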

How the results depend on the processing

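Counts of the 37 genes that passed moved with the method. Over both sexes, the 2 higher became 1 with DESeq2, 0 with limma voom, 0 when thinned to equal depth, 1 without a covariate and 0 to 2 with a library left out, and the 1 lower (Gldc) became 2 with no count filter and 0 when thinned. In females, the 5 higher became 3 with DESeq2, 9 with no filter, 2 when thinned and 2 to 8 with a library left out, and the 1 lower became 0 with DESeq2, 0 when thinned and 0 to 1 with a library left out. In males, the 1 lower became 0 with DESeq2, 0 with voom, 3 with no filter, 0 when thinned and 0 to 2 with a library left out. For females over males, 0 higher became 2 with no filter and 0 to 1 with a library left out, and 1 lower became 0 when thinned and 0 to 1 with a library left out. For the difference between the sexes, the 1 higher became 2 with DESeq2, 6 with no filter, 0 when thinned and 0 to 1 with a library left out. With the replicate number as a block in place of sex, the counts were 1 higher over both sexes and 3 higher for the difference between the sexes. The block carries sex, and whether the numbers pair animals could not be told. The cause of these shifts was not tested. Mccc2 reversed when thinned, to -0.061 for females over males, against 0.32 in the full libraries, neither of which passed. Leaving out 1 library leaves a sex and title pair with a lone animal, taken to vary like the others. The transcript usage count stayed at 0 under each alternative run. Scaled to all mapped reads, route sums moved by less than 1 SD over the 4 libraries of a title, but the log2 ratio of the histidine sums, O-titled over Y-titled, was 0.05 in place of -0.05, and pairs moved more (branched-chain in Y-titled males 1119 in place of 1211 CPM, transaminases in O-titled females 874 in place of 834 CPM). No gene was under the count filter, so the test planned for such genes had nothing to run on. With 2 animals per sex and title, and 545171 reads in the shallowest library, genes of few reads such as Amt and Sdsl are the least precise.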

Other observations

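Sulfur amino acid enzymes, a route outside the 37 genes, were divided in O-titled females. Of 14 tested, 2 were higher and 2 lower there, where 2.74% of all genes passed in each direction. None of the 14 passed in males, beside 1.26% of all genes in either direction. Mat1a, which makes S-adenosylmethionine from methionine, had 2579 and 2430.0 CPM in O-titled females, against 1482 and 1767 CPM in Y-titled females (log2 fold change 0.62, adjusted p = 0.0219 by edgeR's quasi-likelihood test), and Sqor, which oxidises sulfide, had 272 and 299 CPM in O-titled females, against 187 and 185 CPM in Y-titled females (0.62, 0.0155). Cdo1, which commits cysteine to breakdown, had 1000.1 and 1355 CPM in O-titled females, against 1934 and 1909 CPM in Y-titled females (-0.71, 0.0126), and Ethe1, a sulfur dioxygenase, had 46.0 and 27.3 CPM in O-titled females, against 76.2 and 101 CPM in Y-titled females (-1.30, 0.00439). The O-titled and Y-titled females did not overlap for any of these, all of which had passed in females. Of all genes tested, 22.3% had both O-titled females above both Y-titled females and 23.9% had them below. Over both sexes Mat1a (0.49, adjusted p = 0.0262) and Sqor (0.44, 0.0379) were higher and Ethe1 (-0.89, 0.0265) lower in O-titled livers. With each library left out in turn, the female calls held in 6 of 8 settings for Mat1a and Ethe1 and in 5 for Sqor and Cdo1. Y-titled replicate 3 was among the libraries whose absence ended those of Mat1a (adjusted p = 0.288), Sqor (0.119) and Cdo1 (0.0976), and Y-titled replicate 4 that of Ethe1 (0.085). The calls over both sexes held in 3 settings for Mat1a and Sqor and in 4 for Ethe1. For females over males, 2 of the 14 were higher and 1 lower, where 1.81% of all genes passed as higher and 1.15% as lower. Csad, of the taurine route, was lower in females (-1.20, adjusted p = 0.00346), while Mat1a (0.48, 0.0352) and Sqor (0.52, 0.0163) were higher. With a library left out, these 2 higher calls held in 2 of 8 settings for Mat1a and in 5 for Sqor.

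Of 12 amino acid transporters tested, 1 passed over both sexes, beside 4.01% of all genes, 2 in females, beside 5.47%, and none in males, beside 1.26%. Slc38a3, which carries glutamine and histidine, was higher in O-titled livers, with 1302, 1476, 1791 and 1946 CPM in the O-titled libraries, against 933, 1075, 717 and 922 CPM in the Y-titled libraries (0.83, adjusted p = 0.0034), and the groups did not overlap, as for 8.71% of all genes tested. Slc38a4, a carrier of neutral amino acids, had 1032 and 873 CPM in O-titled females, against 538 and 522 CPM in Y-titled females and was higher in O-titled females (0.85, adjusted p = 0.00308). Cyp2f2, a marker of periportal hepatocytes, was lower in O-titled livers, with 578, 641, 361 and 396 CPM in the O-titled libraries, against 1007, 1301, 683 and 767 CPM in the Y-titled libraries (-0.93, adjusted p = 7.81e-05), while none of the other 6 periportal markers passed in that comparison. The calls of Csad, Slc38a3, Slc38a4 and Cyp2f2 held with any library left out.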
